A study of Homo sapiens with 17 samples.

Results

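Of 35739 FOXA1 regions called in both libraries of parental A549 cells, 698 (1.95%) overlapped the repressive histone mark H3K9me3, and these 698 regions, the members, are described here. FOXA1 peaks of the 2 parental lists that shared at least 1 bp were merged into regions on chromosomes 1 to 22 and X, and regions called in both lists were kept. A member overlapped by at least 1 bp a base that both parental H3K9me3 lists covered, so the parental FOXA1 calls and the H3K9me3 overlap are a description and support nothing below. Protein binding and histone marks were mapped by ChIP-seq, which sequences DNA pulled down with an antibody, in the lung carcinoma cell line A549. Parental cells (genotype WT, untreated) were profiled for FOXA1, H3K9me3 and H3K27me3. A derived line (genotype A-Fos integrated with piggyBac, a transposon vector) was profiled for FOXA1 and for the AP-1 subunit FOSL2, either untreated or 48 h after doxycycline at 1 μg/mL was added. Each of these 7 groups had 2 libraries that the titles call biological replicates. The histone marks were read in parental cells alone. Doxycycline was given to A-Fos cells alone in the libraries used here, so the drug and the induction of A-Fos cannot be told apart. Whether the A-Fos line was 1 clone was not given in the labels, and peak lists hold no expression, so the cell type was not checked against marker levels. Depth cannot be read from a peak list, and a longer list may come from a deeper library.

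FOXA1 is a forkhead pioneer factor, a protein that can bind its site in closed chromatin and help other factors to reach the DNA, and it helps to set up lung and liver epithelium. H3K9me3, trimethylation of lysine 9 on histone H3, marks constitutive heterochromatin, in which repeats and the gene clusters of KRAB zinc finger proteins are kept compact. H3K27me3 is the mark that Polycomb complexes write on silent developmental genes. AP-1 is a dimer of Fos and Jun family proteins, and A-Fos is a dominant-negative Fos that pairs with the Jun partner and keeps the dimer off DNA.

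The sequences shown first are promoter windows that members reached, because a promoter shows most plainly how a FOXA1 region and the mark can lie side by side or on the same bases. In the RefSeq promoter table of build GRCh38.p14, whose coordinates are those of hg38, members overlapped the 250 bases before a transcript start in 21 of 34961 windows. Among the members that reached such a window, the 5 highest by parental FOXA1 enrichment were taken, 1 window for each nearest gene. Their windows are printed 5′ to 3′ on the gene's strand. Bases covered by both parental H3K9me3 lists are in capitals and the others in lower case. They lie at chr9:131545273-131545522 (PRRT1B, plus strand), chr7:121505160-121505409 (LOC105375478, minus strand), chr19:37172696-37172945 (ZNF585A, minus strand), chr9:113012193-113012442 (ZNF883, minus strand) and chr19:37210537-37210786 (ZNF585B, minus strand).
PRRT1B: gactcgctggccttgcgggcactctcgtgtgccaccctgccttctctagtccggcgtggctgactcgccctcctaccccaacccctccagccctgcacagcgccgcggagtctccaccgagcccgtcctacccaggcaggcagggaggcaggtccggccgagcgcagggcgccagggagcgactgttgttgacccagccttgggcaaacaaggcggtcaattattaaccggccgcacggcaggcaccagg
LOC105375478: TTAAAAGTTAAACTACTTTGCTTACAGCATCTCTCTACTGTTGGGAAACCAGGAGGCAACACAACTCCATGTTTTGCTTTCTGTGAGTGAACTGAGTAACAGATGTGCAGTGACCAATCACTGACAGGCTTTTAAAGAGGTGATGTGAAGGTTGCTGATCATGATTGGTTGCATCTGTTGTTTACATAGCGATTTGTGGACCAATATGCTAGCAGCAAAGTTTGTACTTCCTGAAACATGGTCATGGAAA
ZNF585A: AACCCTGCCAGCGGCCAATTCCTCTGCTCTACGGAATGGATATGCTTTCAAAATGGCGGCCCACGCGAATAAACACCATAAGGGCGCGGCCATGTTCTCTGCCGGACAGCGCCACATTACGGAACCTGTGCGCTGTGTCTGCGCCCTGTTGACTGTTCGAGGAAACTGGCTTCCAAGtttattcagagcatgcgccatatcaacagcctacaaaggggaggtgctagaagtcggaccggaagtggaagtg
ZNF883: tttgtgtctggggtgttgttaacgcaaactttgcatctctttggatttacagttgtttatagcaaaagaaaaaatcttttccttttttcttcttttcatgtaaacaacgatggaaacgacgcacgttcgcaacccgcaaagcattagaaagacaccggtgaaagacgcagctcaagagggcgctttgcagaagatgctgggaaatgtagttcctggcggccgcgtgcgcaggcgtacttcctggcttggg
ZNF585B: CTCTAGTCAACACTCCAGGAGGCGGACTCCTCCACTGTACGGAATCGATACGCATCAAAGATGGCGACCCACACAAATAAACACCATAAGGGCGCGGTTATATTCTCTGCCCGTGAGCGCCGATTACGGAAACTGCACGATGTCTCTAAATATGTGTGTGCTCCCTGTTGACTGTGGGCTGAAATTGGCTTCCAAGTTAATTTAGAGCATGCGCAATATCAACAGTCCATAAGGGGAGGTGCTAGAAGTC

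The member at ZNF585A also reached a second start's window, chr19:37172437-37172686, with 223 of 250 bases in the member and 0 under the mark, and the window with more bases in the member is shown. The mark covered all 250 bases at LOC105375478 and ZNF585B, 177 of 250 at ZNF585A, and 0 of 250 at PRRT1B and ZNF883, whose members touched the mark outside the window. The paralogues ZNF585A and ZNF585B lie in the same chromosome 19 zinc finger cluster. The forkhead letters TGTTTAC or TGTTTGC were searched on both strands. They began at base 204 of the PRRT1B window, base 179 of the LOC105375478 window and base 100 of the ZNF883 window, counted from 1 at the 5′ end, and were not found in the ZNF585A and ZNF585B windows. Over all 21 windows reached by a member, 7 (33.3%) held the forkhead letters, beside 364 of 1961 windows (18.6%) reached by any parental FOXA1 region. The letters were in 50 of 870 windows overlapping H3K9me3 (5.75%) and 2127 of all 34961 (6.08%). Some of the 21 windows came from the same member, as at ZNF585A, ZNF615 and ZFP30, and the difference in shares was not tested. The AP-1 letters TGACTCA, whose reverse complement is TGAGTCA, were in 1 of the 21 (4.76%), 180 of the 1961 (9.18%), 36 of the 870 (4.14%) and 1458 of all windows (4.17%). A match of letters is a description of the window and not a bound site. Sequence inside members away from promoters was not used here.

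Members sat at the edge of H3K9me3 more often than within it. The mark covered 101.8 Mb in 158181 stretches with a median length of 405 bp. The median member was 448 bp long and 42.3% covered, with quartiles of 18.3% and 93.9%. In all, 386 members were under 50% covered, 144 were covered by 50% or more but not fully, and 168 were fully covered. Both parental FOXA1 summits, the bases of highest signal in each library's peak, lay on the mark in 294 members (42.1%), 1 summit did in 35, and neither did in 369 (52.9%). A replicate 1 summit that lay off the mark was a median of 163 bp from it. The word inside therefore holds by the 1 bp rule, while by the summits it holds for fewer than 50% of the members.

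**Figure D1:**
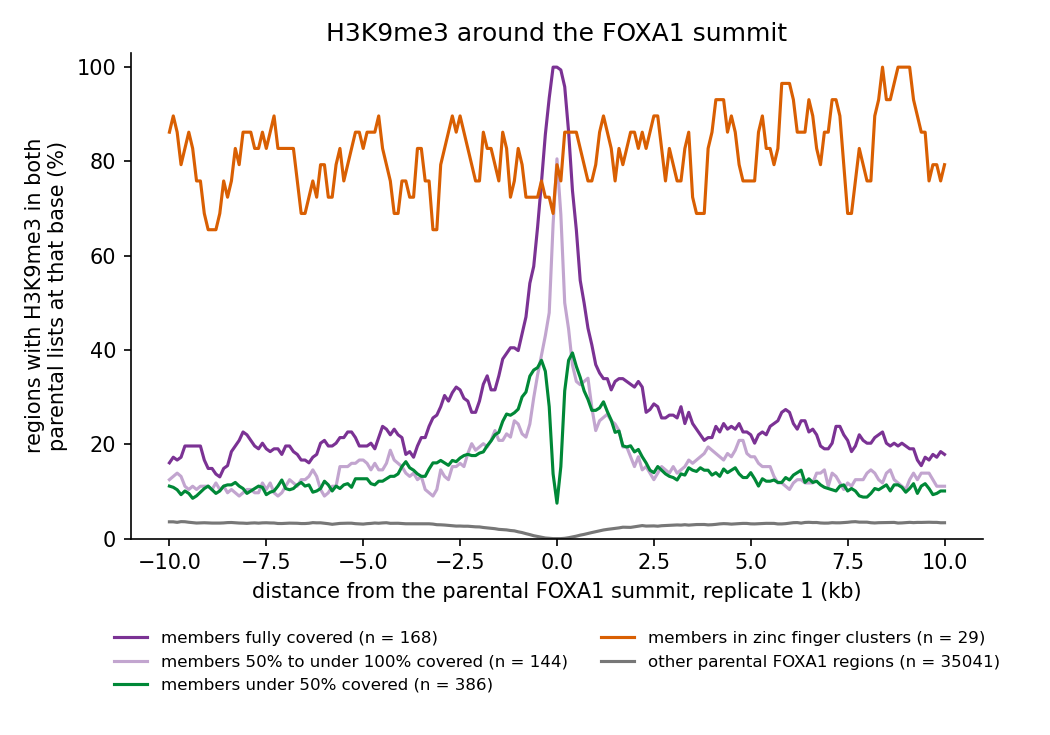
The line plot gives, at each distance in kb from the replicate 1 FOXA1 summit, the percentage of regions with H3K9me3 in both parental lists at that base, for members by coverage class, for the members in zinc finger clusters and for all other parental regions. Coverage peaks at the summit in fully covered members, dips at the summit in members under 50% covered with shoulders on either side, and stays high across the whole window in the 29 cluster members.

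Around most members the mark covered under 25% of the nearby bases. H3K9me3 covered a median of 12.0% of the bases within 10 kb on either side of a member. It covered at least 50% of those bases around 54 members, 25% to 50% around 98, 10% to 25% around 238 and under 10% around 308. Around parental FOXA1 regions outside H3K9me3 the median was 0% and the upper quartile 3.58%. At the threshold, 169 members shared at most 100 bp with the mark and 19 at most 10 bp. The members with the smallest overlap, 1 bp each, lay near SYT10, a synaptotagmin gene, and near EEA1, which encodes an early endosome protein. Outside the threshold, 164 non-members lay within 100 bp of the mark and 2146 within 1000 bp. The nearest were 1 bp away near PCDHA3, a clustered protocadherin gene, at a mean enrichment percentile of 86.1 and with no call in the A-Fos line, and 2 bp away near CNNM1 at 78.1 with mixed calls. The percentile ranks a region's highest peak among all peaks of its list by the authors' fold enrichment, and the mean is over both parental lists.

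Parental FOXA1 enrichment was modest at most members and very high at a few. The median fold enrichment over background was 5.90 and 7.92 in the 2 parental libraries, beside 6.41 and 10.0 over all 35739 regions. The mean percentile had a median of 62.5, beside 67.9 over all regions. When all regions were split into deciles, 10 groups of equal size, by this percentile, members made up 3.22% of the lowest decile and 1.79% of the highest. The position of the summit changed along the same scale. Both summits lay on the mark in 70 of the 115 members of the lowest decile (60.9%) and in 5 of the 64 members of the highest (7.81%). Fully covered members had a median percentile of 49.0 and members under 50% covered 71.9. Longer peaks reach more bases, and the median member length was 318 bp in the lowest decile and 976.5 bp in the highest. The part of length in these shares was not tested.

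The 5 members with the highest parental enrichment were each called in all 4 A-Fos FOXA1 lists, and each carried the mark on at most 21.7% of its bases. The first lay 20.7 kb from NACA2, a paralogue of the nascent polypeptide complex alpha subunit, at chr17:61568104-61569749. Its fold enrichment was 224.7 and 466.2 in parental cells, 50.2 and 97.6 in A-Fos cells without doxycycline, and 9.75 and 17.7 with doxycycline. The region 206.5 kb from PAPPA, a protease of insulin-like growth factor binding proteins, shared 4 bp with the mark at chr9:115946312-115947289. Its fold was 123.1 and 290.6 in parental cells, 48.7 and 97.5 without doxycycline, and 37.7 and 64.3 with it. At NACA2 both doxycycline libraries lay below both without it, while at PAPPA the groups overlapped. The other regions of the 5 lay within SCIMP, an adaptor of immune receptors, 38.1 kb from CYP2A7, a cytochrome P450 family gene, and 147.8 kb from HMCN1, which encodes the matrix protein hemicentin. At CYP2A7 the fold was 24.9 and 45.8 without doxycycline and 10.3 and 9.78 with it. At HMCN1 it was 28.3 and 48.4 without and 25.8 and 39.1 with it, so the groups overlapped there. Of the 5, FOSL2 was called at NACA2, CYP2A7 and HMCN1. Folds were scaled by the peak caller within each library, and these regions were chosen by their parental fold.

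FOXA1 calls in the A-Fos line were sparse at members, as they were at parental regions as a whole. On chromosomes 1 to 22 and X the A-Fos FOXA1 lists held 7633 to 15065 peaks, beside 49448 and 80318 in the parental lists. Without doxycycline, 112 members (16.0%) were called in replicate 1 and 184 (26.4%) in replicate 2, beside 18.2% and 33.2% of all parental regions. With doxycycline, 160 (22.9%) and 150 (21.5%) were called, beside 19.4% and 24.5%. The groups overlapped. The mean was 148 ± 50.9 members (SD, n = 2) without doxycycline and 155 ± 7.07 (SD, n = 2) with it, a difference of 7 members (exact two-sided permutation test over the 4 libraries, p = 1, where 2 against 2 allows no p below 0.33). This difference changed sign when A-Fos no-doxycycline replicate 1 was left out (-29 members) and when H3K9me3 replicate 1 was left out (-12.5 members).

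Both lists without doxycycline called 95 members (13.6%; 16.6% of all regions), and both with doxycycline called 111 (15.9%; 15.1% of all regions). No A-Fos FOXA1 list called 414 members (59.3%; 55.6% of all regions). All 4 lists called 52 (kept; 7.45%, beside 8.94%), both without and neither with doxycycline called 30 (lost; 4.30%, beside 5.11%), and neither without and both with doxycycline called 32 (gained; 4.58%, beside 2.57%). The other 170 had mixed calls. Of the 95 members called in both lists without doxycycline, 31.6% were lost (95% exact Clopper-Pearson interval 22.4% to 41.9%), beside 30.7% of 5844 regions outside H3K9me3. Of the 111 called in both lists with doxycycline, 28.8% were gained (20.6% to 38.2%), beside 16.7% of 5295 outside. These intervals cover counting error over regions alone and not the spread between libraries.

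Calls in the A-Fos line followed parental enrichment closely. In the highest decile, 47 of 64 members (73.4%, 60.9% to 83.7%) were called in both lists without doxycycline, beside 3030 of 3509 regions outside the mark (86.3%). With doxycycline the same decile gave 40 of 64 members (62.5%, 49.5% to 74.3%), beside 2065 of 3509 (58.8%). In the lowest decile, 0 of 115 members were called in both lists without doxycycline, which allows up to 3.16% by the exact interval, and 4 of 115 (3.48%) in both lists with it, beside 30 of 3459 outside (0.867%). Kept members had a median mean percentile of 96.1, lost members 90.0, gained members 73.4 and uncalled members 50.5.

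**Figure D2:**
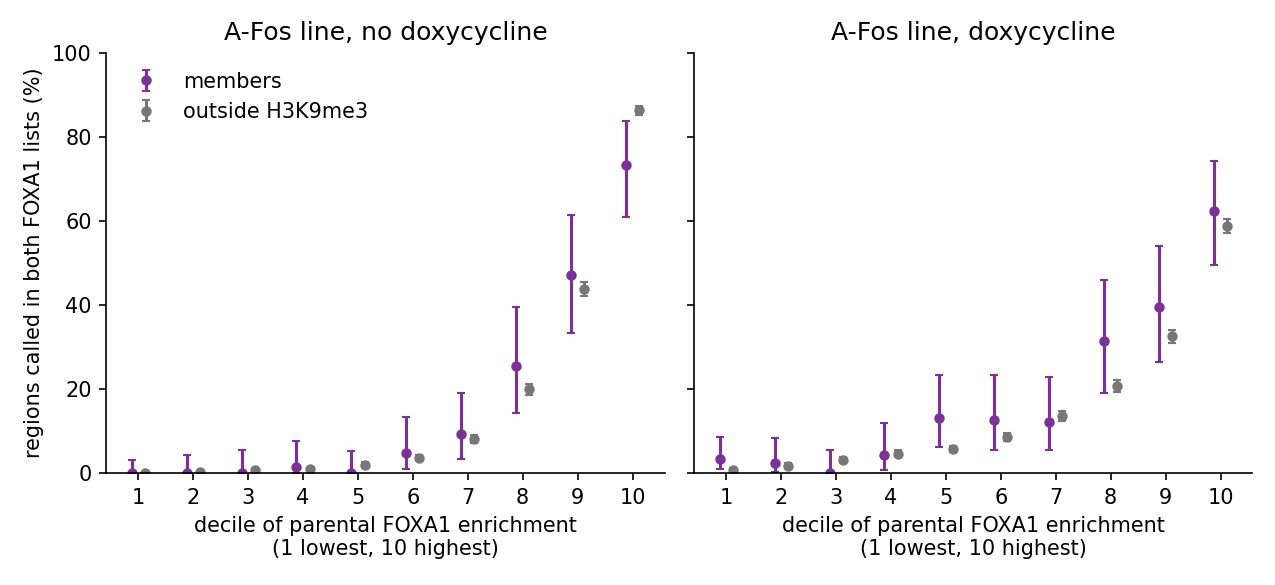
Points give the percentage of regions called in both A-Fos FOXA1 lists in each decile of parental FOXA1 enrichment, without doxycycline (left) and with it (right), for the members and for regions outside H3K9me3, with 95% exact intervals over regions. In the highest decile without doxycycline the members lie at 73.4% and the other regions at 86.3%, and the members' intervals hold the other regions' value in most deciles.

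FOSL2 is a Fos family partner in AP-1. Both FOSL2 lists without doxycycline called 70 members (10.0%; 13.5% of all regions). By library, 167 and 74 members were called without doxycycline (33.4% and 13.4% of all regions) and 4 and 2 with it (0.143% and 0.252% of all regions). The 70 included 10 of the 294 members with both summits on the mark (3.40%, 1.64% to 6.17%) and 57 of the 369 with neither (15.4%), a difference between classes that was not tested. The classes also differed in parental enrichment, with 48 of the 294 and 181 of the 369 in deciles 7 to 10. From the lowest to the highest decile the FOSL2 share rose from 2.61% to 34.4% of members and from 6.10% to 28.4% outside H3K9me3. Among members called in both FOXA1 lists without doxycycline, 15 of 33 with FOSL2 were lost (45.5%, 28.1% to 63.6%) and 15 of 62 without it (24.2%, 14.2% to 36.7%). Outside H3K9me3 the shares were 43.3% of 1696 and 25.6% of 4148. The 70 members with FOSL2 were called by FOXA1 33 and 48 times without doxycycline and 17 and 14 times with it, so the groups did not overlap. These were 47.1%, 68.6%, 24.3% and 20% of the 70, beside 37.3%, 57.4%, 21.6% and 20.3% of the 4741 FOSL2 regions outside the mark and 18.2%, 33.2%, 19.4% and 24.5% of all regions.

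The lost member with the highest parental enrichment overlapped ZNF169, a KRAB zinc finger gene outside the clusters, at chr9:94278265-94279513. Its fold was 60.6 and 106.9 in parental cells and 19.8 and 32.2 in A-Fos cells without doxycycline, and neither doxycycline library had a peak. The mark covered 27.5% of it and FOSL2 was called there. The next was 7.92 kb from CCN4, which encodes a matricellular protein of the Wnt pathway, with a fold of 7.96 and 16.5 without doxycycline, and it too had FOSL2. The others named by the ranking were 22.9 kb from FAT2, an atypical cadherin gene, with a fold of 7.12 and 12.9 without doxycycline and no FOSL2, and 148.2 kb from FAM3C, which encodes a secreted cytokine-like protein, with 12.7 and 18.6 and FOSL2. Of the 30 lost members, 15 had FOSL2 and 2 had both summits on the mark, and none lay in H3K27me3 or in a zinc finger cluster. Outside H3K9me3, 735 of the 1797 lost regions had FOSL2. Both summits lay on the mark in 42.1% of all members. H3K27me3 overlapped 14.3% of all members and 3.23% of all regions, and clusters held 4.15% and 0.238%. Only members called in both lists without doxycycline could be lost. No cluster member was so called. Of members in H3K27me3, 0 of 50 were in deciles 1 to 3 of parental enrichment, 0 of 31 in deciles 4 to 6 and 4 of 19 in deciles 7 to 10. The counts of 0 in 30 are therefore not read against these shares. A FOSL2 member overlapping ZNF507, another zinc finger gene outside the clusters, was kept, with a fold of 28.2 and 50.7 without doxycycline and 35.9 and 42.8 with it.

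At members with both summits on the mark, each doxycycline library had more FOXA1 calls than either library without it. This split, and that by H3K27me3 below, was chosen after the values were seen. Of the 294, 18 and 38 were called without doxycycline (6.12% and 12.9%) and 54 and 49 with it (18.4% and 16.7%), so the groups did not overlap, beside 18.2%, 33.2%, 19.4% and 24.5% of all regions in the same libraries. The means were 28 ± 14.1 and 51.5 ± 3.54 (SD, n = 2), a difference of 23.5 members (exact two-sided permutation test, p = 0.33, the smallest possible). The difference was 13.5 members without A-Fos no-doxycycline replicate 1. Both lists without doxycycline called 12 of them and both with it called 35, 2 were lost, 18 were gained and 210 were called nowhere in the A-Fos line. The 168 fully covered members were called 6 and 14 times without doxycycline and 27 and 22 times with it. By contrast, the 369 members with both summits off the mark were called 93 and 141 times without doxycycline and 102 and 96 times with it, so the groups overlapped. The difference between these classes was not tested.

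In deciles 1 to 3 of parental enrichment, which held 155 of the 294, both doxycycline lists called 3 members with summits on the mark (1.94%, 0.401% to 5.55%), beside 2 of 88 with summits off it (2.27%) and 1.98% of 10460 regions outside H3K9me3, which lies within the members' interval. Both lists without doxycycline called 0 of the 155, which allows up to 2.35% by the exact interval, and 0.402% of the 10460. In deciles 4 to 6, both doxycycline lists called 13 of 91 members with summits on the mark (14.3%, 7.83% to 23.2%), 6 of 100 members with summits off it (6.0%) and 6.37% of 10521 regions outside H3K9me3. Both lists without doxycycline called 1 of the 91 (1.10%) and 2.24% of the 10521. In deciles 7 to 10 the 48 members with summits on the mark were called 11 times in both lists without doxycycline (22.9%, 12.0% to 37.3%), beside 43.6% of 181 members with summits off it and 39.6% of regions outside. Both lists with doxycycline called 19 of the 48 (39.6%, 25.8% to 54.7%), beside 35.4% of the 181 and 31.4% of regions outside. This range is not matched for enrichment, since the 48 lay 18, 13, 12 and 5 in deciles 7, 8, 9 and 10. From decile 7 to decile 10, calls at regions outside rose from 8.16% to 86.3% without doxycycline. With doxycycline they rose from 13.5% to 58.8%. The part of enrichment within this range in the shares was not tested.

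The doxycycline FOXA1 lists differed from the FOXA1 lists without doxycycline over the whole genome. Their median peak fold was 4.48 and 4.75, beside 5.74 and 6.34 without doxycycline, and 5.19% and 6.38% of their peaks lay in H3K9me3, beside 3.14% and 2.08%. Peaks in the mark were weak in all 4 lists, with a median fold of 3.36 to 3.77. The part of these differences between lists in the members' calls was not tested. With the 4 lists shortened to the same number of peaks by fold enrichment, the 294 members with summits on the mark were still called 18 and 13 times without doxycycline and 43 and 36 times with it. In the FOSL2 lists the share of peaks in H3K9me3 was also higher with doxycycline, while the number of such peaks was lower. With doxycycline 19.3% and 16.8% of their 1854 and 5274 peaks lay in H3K9me3. Without it 4.08% and 7.63% of 45586 and 14842 did. As counts these were 358 and 885 peaks with doxycycline, beside 1859 and 1133 without it. The highest fold in the FOSL2 lists was 6.57 and 6.77 with doxycycline, beside 148.0 and 45.9 without it.

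**Figure D3:**
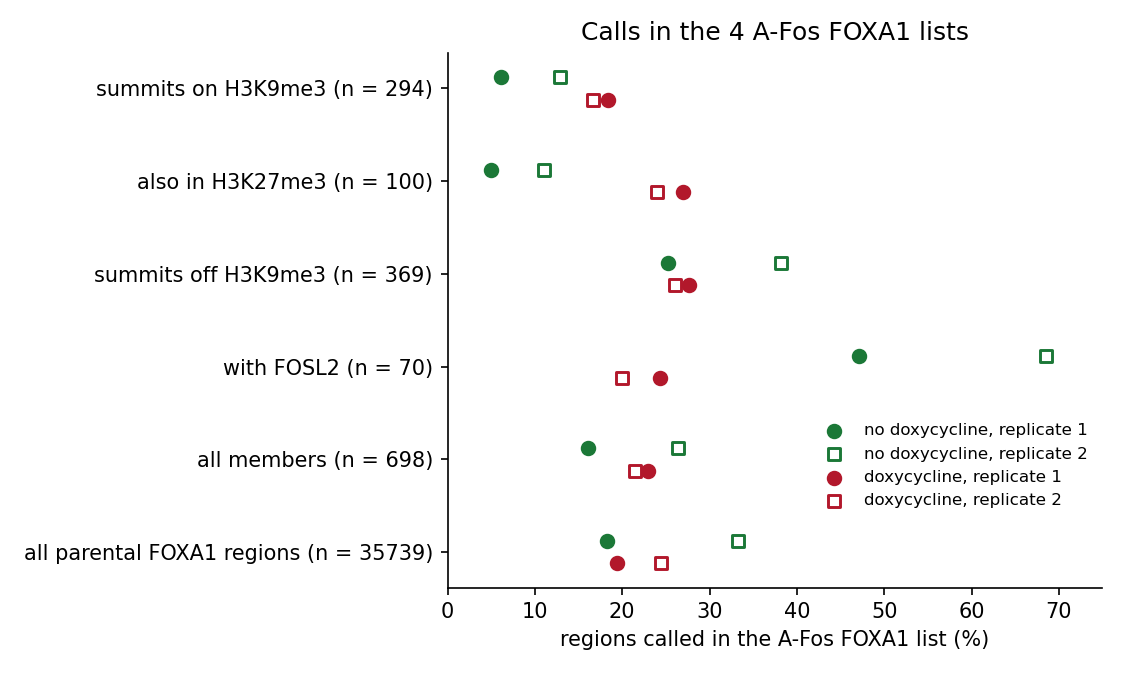
Each point is the percentage of a class of regions called in 1 of the 4 A-Fos FOXA1 libraries, without doxycycline (green) or with it (red), circles for replicate 1 and squares for replicate 2. The red points lie to the right of the green ones for members with summits on H3K9me3 and for members also in H3K27me3, to the left for members with FOSL2, and among the green ones for all members.

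Of the 32 gained members, 18 had both summits on H3K9me3, 11 overlapped H3K27me3 (34.4%), and 1 had FOSL2. Over all members these shares were 42.1%, 14.3% and 10.0%. Gained regions outside H3K9me3 overlapped H3K27me3 in 25 of 155 cases in deciles 1 to 3. In deciles 4 to 6 it was 30 of 357, and in deciles 7 to 10 it was 22 of 373, beside 3.23% of all regions. The gained member with the highest parental enrichment lay at chr12:131429156-131430015, within the predicted protein-coding gene LOC124903090 and 281.1 kb from SFSWAP, the nearest gene with a name other than a LOC number. Its fold was 43.3 and 47.6 in parental cells and 10.2 and 5.82 with doxycycline, and neither library without doxycycline had a peak. The next were 3.84 kb from MICAL2, which encodes an actin-oxidising enzyme, with a fold of 6.73 and 5.02 with doxycycline, and within REC114, a meiotic recombination gene, with 6.84 and 4.33. In the 2 doxycycline lists the gained members stood at median fold percentiles of 55.7 and 64.9, with a lowest value of 3.91 and 5.80, so some were near the bottom of their lists.

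H3K27me3, the Polycomb mark, overlapped 100 members (14.3%, 11.8% to 17.1%) and 3.23% of all parental FOXA1 regions, taking bases covered in both H3K27me3 lists. Of the 100, 96 held both marks on the same base in bulk cells, where 2 cell populations and 1 nucleosome with both cannot be told apart. By list, 115 and 141 members were called (4.03% and 5.46% of all regions). The share was 18.7% among members with both summits on H3K9me3 and 10.8% among those with neither. FOXA1 was called at 5 and 11 of the 100 without doxycycline and at 27 and 24 with it, so the groups did not overlap, beside 18.2%, 33.2%, 19.4% and 24.5% of all regions in the same libraries (means 8 ± 4.24 and 25.5 ± 2.12, SD, n = 2; exact permutation p = 0.33, the smallest possible). Of the 100, 0 were lost, 11 were gained, 66 had no call and 1 had FOSL2. Over all regions these shares were 5.11%, 2.57%, 55.6% and 13.5%. Only regions called in both lists without doxycycline can be lost. Those lists together called 0 of 50 of these members in deciles 1 to 3, 0 of 31 in deciles 4 to 6 and 4 of 19 in deciles 7 to 10. The same order of libraries was seen at the 1054 parental regions in H3K27me3 but outside H3K9me3, with 101 and 204 calls without doxycycline and 262 and 311 with it. Of these regions, both lists without doxycycline called 0 of 442 in deciles 1 to 3, 6 of 348 in deciles 4 to 6 and 77 of 264 in deciles 7 to 10. Among them 0, 0 and 21 were lost, where the first 0 was fixed by the definition. In the same ranges 25, 30 and 22 were gained. The doxycycline FOXA1 lists as a whole held more of their peaks in H3K27me3, 9.09% and 8.22%, beside 2.82% and 2.00% without doxycycline. The part of this in the members' calls was not tested. The FOSL2 lists held 20.8% and 23.2% of their peaks in H3K27me3 with doxycycline, beside 5.87% and 8.46% without it. As counts these were 386 and 1221 peaks with doxycycline, beside 2677 and 1256 without it. Without the H3K27me3 members, the 239 members with both summits on H3K9me3 gave 17 and 36 calls without doxycycline and 42 and 38 with it.

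The H3K27me3 members with the highest parental enrichment included 2 regions beside cytochrome P450 genes on chromosome 19, where the CYP2A enzymes oxidise nicotine and other small molecules. The region near CYP2A7 at chr19:40920314-40921981 had a fold of 109.8 and 325.2 in parental cells, H3K9me3 on 17.7% of its bases and on 57.3% of the bases within 10 kb on either side, and FOSL2. The region 11.02 kb from CYP2A6 had 15.7 and 37.4 in parental cells, 5.14 and 5.77 without doxycycline and 5.53 and 4.33 with it, and was kept. The region 2.65 kb from ADAMTSL3, a matrix glycoprotein gene, was gained, with a fold of 3.66 and 6.10 with doxycycline. The region 114.2 kb from BNIP2 had 5.07 in 1 library without doxycycline and 4.91 and 9.82 with it.

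Zinc finger gene clusters held few members, but a larger share of their FOXA1 regions were members than over all regions. KRAB zinc finger proteins silence transposable elements, and the mark is known to coat their own gene clusters. A cluster was a run of at least 5 zinc finger genes with gaps of at most 250 kb; 24 such runs held 333 of 569 zinc finger genes and 17.3 Mb, of which both H3K9me3 lists covered 53.4%. They held 29 members (4.15%, 2.80% to 5.91%; 0.238% of all regions), and 29 of the 85 parental FOXA1 regions in clusters were members. Of all bases covered in both H3K9me3 lists, 9.08% lay in the clusters. The part of the mark's coverage in these counts was not tested. Zinc finger genes, in or out of clusters, overlapped 26 members (3.72%; 0.504% of all regions). Of the 24 clusters, ZNF565 to ZNF573 on chromosome 19 had the most, with 9 of its 11 FOXA1 regions. ZNF175 to ZNF331 had 5 of 7, ZIM3 to ZNF446 3 of 7, ZNF302 to ZNF792 3 of 3 and ZNF575 to ZNF180 3 of 13, all on chromosome 19. ZNF251 to ZNF16 on chromosome 8 had 3 of 4. The sources used here do not give how reads that match several of these near-identical genes were handled.

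Members in the clusters lay deep in the mark. H3K9me3 covered a median of 84.7% of the bases around them, 17 of 29 were fully covered and 22 had both summits on it. None of the 29 overlapped H3K27me3 or had FOSL2 called in both lists, each of which allows up to 11.9% by the exact interval. In the A-Fos line, 23 of 29 had no FOXA1 call, 0 were called in both lists without doxycycline and 1 in both with it. Over all regions these shares were 55.6%, 16.6% and 15.1%. Per list the counts were 2 and 2 without doxycycline and 4 and 2 with it. Members here had a median mean percentile of 48.2, beside 65.1 for the 56 FOXA1 regions in clusters outside the mark. By decile, 17 of the 29 lay in deciles 1 to 3, 8 in deciles 4 to 6 and 4 in deciles 7 to 10. In these ranges both lists without doxycycline called 0.402%, 2.24% and 39.6% of regions outside the mark, and both with it 1.98%, 6.37% and 31.4%. Of the last 4 members, 2 lay in decile 7 and 2 in decile 9. Both lists without doxycycline called 8.16% and 43.9% of regions outside the mark in these 2 deciles. The part of enrichment in the cluster members' calls was not tested.

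Of the 6 cluster members with the highest parental enrichment, 5 lay within 1 kb of a gene's end. The region at ZNF585A, chr19:37172464-37173083, had a fold of 13.1 and 23.1 in parental cells, 2.74 in 1 library without doxycycline and 4.01 in 1 with it. The region at ZNF585B, chr19:37210255-37211117, had 10.0 and 11.4 in parental cells, 3.41 in 1 library without doxycycline and 3.12 in 1 with it. The regions at ZNF233, ZNF331, ZNF615 and ZNF616 had parental folds between 7.05 and 17.6 and no A-Fos FOXA1 call. Of the 29 cluster members, 9 lay within 1 kb of a protein-coding gene's end, beside 27 of all 698 (3.87%; 7.22% of all regions). The gained member of the clusters lay 3.37 kb from ZNF30, fully covered, with a fold of 4.05 and 6.32 in parental cells and 3.31 and 3.96 with doxycycline. The 4 members with the densest surrounding mark lay at or near ZNF16, ZNF790, ZSCAN18 and ZNF383, with 92.5% to 95.6% of the bases covered. Their parental folds ran from 3.24 to 8.89, and 1 of them, at ZNF383, had a call in 1 A-Fos library, with a fold of 2.71.

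**Figure D4:**
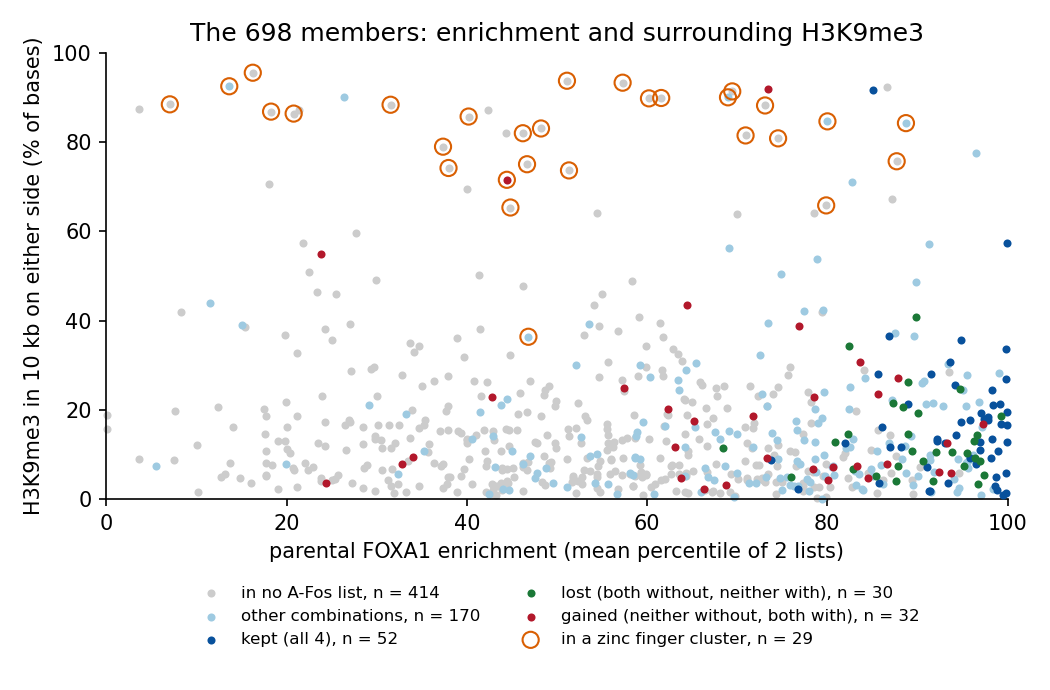
Each point is a member, placed by its mean parental FOXA1 percentile and by the percentage of bases with H3K9me3 within 10 kb on either side, coloured by its calls in the A-Fos line and circled in orange when in a zinc finger cluster. The 29 cluster members lie mostly in the upper part and include no lost or kept member, while kept and lost members gather at the right and gained members spread across the middle.

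Gene groups were compared by the share of their genes with a member nearby. Within 10 kb of a gene, 38 of 569 zinc finger genes had a member (6.68%), beside 344 of all 19974 protein-coding genes (1.72%). Olfactory receptor genes, which sit in large silent clusters, had 1 of 392 (OR5AK2). Clustered protocadherin genes, which give neurons their surface identity, had 3 of 51, PCDHGA1, PCDHGA2 and PCDHGA3, and these shared a single region (5.88%). The 40 HOX, 55 keratin, 20 lung epithelial, 14 liver and foregut, 10 neuron and muscle and 10 housekeeping genes had 0 each, although 12 of the lung and 11 of the liver and foregut genes had a parental FOXA1 region in that window. Lists this short would hold under 1 such gene at the 1.72% of all genes, so a count of 0 in them cannot be told apart from that share. Members overlapped a protein-coding gene in 227 cases (32.5%; 51.7% of all regions).

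The members were unevenly spread over chromosomes. Chromosome 19 held 67 (9.60% of members), beside 1.86% of all parental FOXA1 regions and 12.9% of the H3K9me3 bases. Chromosome 12 held the most, 92 (13.2%), beside 7.90% of regions and 6.51% of the mark. Chromosome 17 held 56, chromosome 8 held 53 and chromosome 15 held 52. Chromosome 22 held 0 of its 293 FOXA1 regions, while chromosomes 6 and X held 6 and 2.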

How the data were processed

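Peak lists of 14 ChIP-seq libraries (2 per group) were used, and the 3 input libraries were left out. Each deposited list, in the 10 columns of the narrowPeak format and without a header, holds peak positions and summit offsets, a linear fold enrichment over background (a ratio), and p-values and q-values as −log10. The submitters' processing notes name fastp 0.23.2, DRAGEN, SAMtools 1.8, BWA 2.2.1, MACS2 and deepTools, with hg38 as the build. Their order and settings were not given in the sources used here. Since the authors deposited a list for every library, replicates were not pooled. Peak numbers ran without gaps in the parental lists, while 77 to 172 were missing from each A-Fos FOXA1 list and 30 to 80 from each FOSL2 list, so a few uncalled regions may have had a peak that the list no longer holds. Peak names mention deduplicated reads in the A-Fos lists and not in the parental ones. Per the labels' protocols, 50 M paired reads of 50 bp were obtained for each sample, and the lists hold no counts.

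Python 3.11.15, numpy 2.4.6, pandas 2.3.3 and scipy 1.17.1 were used. Overlap was at least 1 bp, and a mark was taken where both its lists covered a base. Intervals are 95% Clopper-Pearson, and conditions were compared with exact permutation tests over libraries. Gene intervals came from RefSeq (GRCh38.p14), without strand. Nearest genes and distances leave out LOC symbols, while counts of overlaps and gene ends include them. Named regions were the highest by mean percentile of parental fold enrichment in each class of fate, mark, FOSL2 or cluster, each nearest gene once, those densest in H3K9me3 and those nearest the threshold; ZNF30 was added after its values were seen. Alternatives were other overlap rules, stronger peaks, equal list lengths, each library left out and a replicate block. The interval and overlap functions were tested on simulated data. The members, gene lists and tests were chosen with earlier results of these data known.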

Additional observations from a re-analysis of the deposited data

How the results depend on the processing

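The share of parental FOXA1 regions overlapping H3K9me3, 1.95%, came to 0.873% with at least 50% coverage, 1.23% with 200 bp around the summit, 5.01% with bases covered in either H3K9me3 list, 1.36% with the upper part of each H3K9me3 list and 1.73% with the upper part of each FOXA1 list by fold enrichment. The share of members called in both A-Fos FOXA1 lists without doxycycline, 13.6%, came to 4.81% (50% coverage), 5.36% (200 bp), 24.8% (upper FOXA1 part), 10.7% (lists of equal length) and 4.08% (both summits on the mark, chosen after seeing the data). With doxycycline, 15.9% came to 13.1%, 11.2%, 26.9%, 12.0% and 11.9% in the same order. The FOSL2 share, 10.0%, came to 3.85% (50% coverage), 4.20% (200 bp), 14.8% (upper FOXA1 part) and 3.40% (both summits). The H3K27me3 share, 14.3%, came to 17.6% (50% coverage), 10.7% (upper part of each H3K27me3 list) and 18.7% (both summits). The zinc finger cluster share, 4.15%, came to 6.73% (50% coverage), 1.90% (either H3K9me3 list), 2.64% (upper FOXA1 part) and 7.48% (both summits). Leaving out each library in turn, or using a single list of a mark or factor, gave 2.45% to 3.63% for the H3K9me3 overlap, 2.99% to 26.4% and 4.24% to 22.9% for calls without and with doxycycline, 2.03% to 23.9% for FOSL2, 9.56% to 20.2% for H3K27me3 and 2.47% to 8.55% for clusters. The lowest shares for FOXA1 and FOSL2 calls and the highest for clusters came without parental FOXA1 replicate 2, the lowest for clusters without H3K9me3 replicate 2 (2.54% without replicate 1), and the highest for FOSL2 without FOSL2 replicate 2. The cause of these moves was not tested, beyond the fewer or more regions each rule admits.

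The difference in calls per list between doxycycline and no doxycycline over all members, 7, was -7.5 with the upper FOXA1 part and ran from -29 to 46.5 with each library left out (46.5 and -12.5 without H3K9me3 replicate 2 and 1, 28.5 and 30 without parental FOXA1 replicate 1 and 2, -29 and 43 without no-doxycycline replicate 1 and 2, 2 and 12 without doxycycline replicate 1 and 2). In those runs a lone library is assumed to vary like its group. For members with both summits on the mark it ran from 13.5 to 58.5 (58.5 and 43 without H3K9me3 replicate 2 and 1, 39.5 without parental FOXA1 replicate 1, 13.5 without no-doxycycline replicate 1) and for members in H3K27me3 from 14.5 to 37 (the latter without H3K9me3 replicate 2), and both were positive under every alternative run. Same-numbered A-Fos libraries share only a number, and their deviations from the group means correlated at 0.0974 over 35739 regions and 0.140 over members. With the replicate block the differences were 7 (exact p = 1), 23.5 (exact p = 0.5) and 17.5 (exact p = 0.5), where 2 pairs allow no p below 0.5. Depth is unknown, so an uncalled member may be bound below the caller's threshold.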
